A study of Homo sapiens with 54 samples.

Results

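The genes described here are 50 genes of the G1/S transition and of DNA replication, from the E2F transcription factors and G1 cyclins through the origin licensing proteins to the polymerases and the enzymes that supply nucleotides. They were chosen by symbol from a list made on function and not on their values, though with earlier results of these data known. All 50 were among the 31835 genes of the count table. RNA was taken from OCI-Ly1, an established human B cell lymphoma line, and counted as unique molecular identifiers (UMIs), each standing for 1 captured mRNA molecule, in bulk 3′ libraries made by prime-seq. Every library came from cells that had been stably transduced with a CMV promoter-driven cDNA of Flag-tagged STAT6, pulsed for 20 min with IL-4 (10 ng/ml), and kept without IL-4 for a further 2, 4, or 8 h. The 27 STAT6 WT libraries carried the wild-type cDNA (9 per time point). The 27 STAT6 MUT libraries carried D419G, D419N, or N421K (3 libraries per line and time point), all substitutions in the DNA-binding domain. The cells also kept their own STAT6, which in OCI-Ly1 has a variant in the same domain, and every group had the IL-4 pulse, so neither transduction nor IL-4 was compared here with its absence. How many transductions were made per construct is not stated in the sources, so that genotype and transduced population cannot be told apart, and because the time points lay in different plate rows, time and plate row cannot be told apart either. Reads of the transduced cDNA may or may not have been assigned to STAT6, so its counts give no check of the labels.

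A cell passes from G1 into S phase when cyclin D and cyclin E kinases release E2F factors, which drive transcription of much of the replication machinery. The origin recognition complex (ORC), CDC6, and CDT1 load the MCM helicase on origins in G1, CDC45 and the GINS complex turn it into an active helicase, and primase with the polymerases, the sliding clamp PCNA, and its loader RFC then copy the DNA. Germinal center B cells, from which follicular lymphoma arises, are among the fastest dividing cells of the body and express these genes strongly.

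The libraries held 161518 to 2978715 UMIs (median 885258.5), and 8 libraries (6 STAT6 MUT, 2 STAT6 WT) lay under 0.5 of the median. The B cell markers MS4A1, CD79A, CD79B, and PAX5 were counted in each of the 54 libraries, whereas CD14, LYZ, COL1A1, COL1A2, KRT8, KRT18, and CD8A had a median of 0 CPM (counts scaled to a common library total). TRAC, a T cell receptor gene, and CDH1, an epithelial cadherin, had medians of 31.4 and 11.8 CPM. CPM are here further scaled by the trimmed mean of M-values (TMM). The 50 genes together took 0.452 to 0.568% of the UMIs of a library. At 2 h, their summed level was 4970 to 5220 CPM in STAT6 WT (median 5080) and 5040 to 6040 CPM in STAT6 MUT (median 5260). At 4 h it was 4660 to 4960 CPM (median 4870) and 4780 to 5250 CPM (median 5150), and at 8 h 4910 to 5350 CPM (median 5130) and 4730 to 5360 CPM (median 5150). The sums of the genotypes overlapped at each time point, though at 2 and 4 h the STAT6 MUT median lay above the highest STAT6 WT library. In bulk RNA, a lower level in every cell and fewer cells in S phase cannot be told apart. CCND2, a D-type cyclin, had 3 UMIs in all libraries together and was not tested, which left 49 of the 50 genes for tests over all libraries.

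Because E2F acts through a short motif in promoters, the 250 bases before the RefSeq start of each gene (GRCh38.p14) were searched on both strands for TTTGGCGC, TTTCCCGC, TTTCGCGC, and TTTGCCGC. Of the 42 genes with a promoter in the RefSeq table, 15 (35.7%) held at least 1 of these words: E2F1, E2F2, MCM3, MCM6, CDT1, GINS2, POLA1, POLA2, POLE, PCNA, RFC3, LIG1, TYMS, UHRF1, and DTL. Among all 27305 promoters of the table, 2.79% did. The palindromic STAT word, TTC and GAA with 4 bases between them, stood in 4 of the 42 windows (9.52%: MCM6, PRIM2, TK1, and UHRF1), against 5.35% of all promoters, and the form with 3 bases between them in 1 (2.38%: PRIM1), against 6.78%. A match is a string of letters and not a shown binding site. The windows of ORC6 (chr16:46689409-46689658, plus strand), MCM6 (chr2:135876444-135876693, minus strand), E2F1 (chr20:33686386-33686635, minus strand), and PCNA (chr20:5126623-5126872, minus strand) are shown because the comparisons below turn on these genes. Each runs 5′ to 3′ on the strand of its gene and ends at the base before the start, with E2F words in capitals. MCM6 has 4 matches, which overlap in pairs, E2F1 has 2, PCNA has 1, and ORC6 has 0.
ORC6: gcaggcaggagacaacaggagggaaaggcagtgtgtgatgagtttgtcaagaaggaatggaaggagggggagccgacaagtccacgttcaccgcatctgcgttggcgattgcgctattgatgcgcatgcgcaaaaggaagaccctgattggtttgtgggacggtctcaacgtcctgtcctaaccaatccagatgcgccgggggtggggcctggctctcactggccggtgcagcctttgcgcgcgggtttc
MCM6: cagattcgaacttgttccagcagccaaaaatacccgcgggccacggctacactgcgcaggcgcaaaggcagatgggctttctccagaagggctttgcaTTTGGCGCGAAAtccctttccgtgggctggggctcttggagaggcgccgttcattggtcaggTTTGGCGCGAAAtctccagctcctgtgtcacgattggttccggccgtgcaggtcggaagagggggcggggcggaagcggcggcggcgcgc
E2F1: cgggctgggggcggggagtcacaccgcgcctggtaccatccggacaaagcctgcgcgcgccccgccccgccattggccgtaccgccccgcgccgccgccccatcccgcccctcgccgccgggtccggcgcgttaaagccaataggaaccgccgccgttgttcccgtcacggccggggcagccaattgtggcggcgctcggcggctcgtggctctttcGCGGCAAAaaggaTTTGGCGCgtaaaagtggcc
PCNA: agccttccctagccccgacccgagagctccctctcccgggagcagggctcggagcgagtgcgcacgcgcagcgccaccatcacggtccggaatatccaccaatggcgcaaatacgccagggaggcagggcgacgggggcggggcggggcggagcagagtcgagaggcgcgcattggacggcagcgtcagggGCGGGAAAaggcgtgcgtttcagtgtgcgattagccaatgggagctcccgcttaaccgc

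The first comparison asks which of these genes differed between cells with mutant and wild-type STAT6 after IL-4. Across all time points, 4 of the 49 genes passed the test for a difference of STAT6 MUT from STAT6 WT, 3 higher and 1 lower in STAT6 MUT (8.16%), beside 13.4% of all genes (6.74% higher and 6.62% lower). A gene was called where edgeR's quasi-likelihood F-test gave an adjusted p under 0.05, by Benjamini-Hochberg over all genes. The genes that rose were ORC6, MCM6, and PRIM1, and the gene that fell was POLE. The median log2 fold change of the 49 genes was 0.017, beside 0.001 for all genes. An unadjusted p under 0.05 was found for 10 of the 49, beside 2356 of all 9261 genes tested. By role, 2 of the 9 licensing genes and 2 of the 8 polymerase and primase genes passed the test. None (0) did among the 6 cyclin and E2F genes, the 6 genes of helicase activation, the 8 genes of the clamp, loader, RPA, and ligation, the 4 genes of nucleotide supply, and the 8 genes of chromatin, checkpoint, and repair, with edgeR as with DESeq2.

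**Figure D1:**
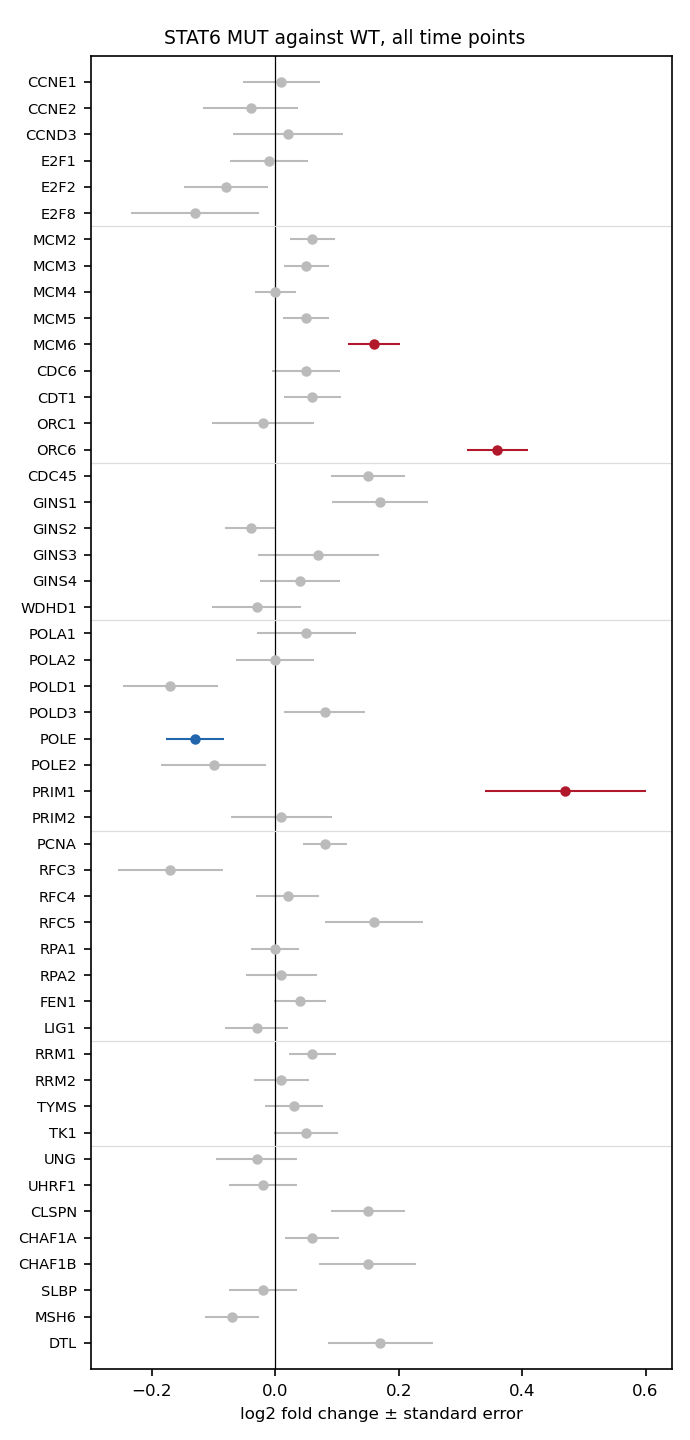
Log2 fold change of each of the 49 tested genes between STAT6 MUT and STAT6 WT over all time points (x axis, points, with bars of ± 1 standard error), in the order of their roles (y axis). Of the 49, ORC6 (0.36), MCM6 (0.16), and PRIM1 (0.47) were called higher and POLE (−0.13) lower.

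ORC6 is the small subunit of the origin recognition complex that binds DNA and bends it around the complex. Its gene lies on chromosome 16 (46689643 to 46698394, plus strand, GRCh38), and no other gene counted in these libraries overlaps it. At 2 h, ORC6 stood at 111 to 154 CPM in STAT6 WT (median 138) and at 167 to 217 CPM in STAT6 MUT (median 179). The groups did not overlap, with 9 of 9 mutant libraries higher than the top wild-type library. At 4 h, its range was 58.9 to 101 CPM (median 82.5) in STAT6 WT and 95.5 to 137 CPM (median 110.0) in STAT6 MUT, with 7 of 9 mutant libraries above the wild-type range. At 8 h, the ranges were 80.5 to 103 CPM (median 91.4) and 86.2 to 153 CPM (median 104), and 5 of 9 mutant libraries lay above the wild-type range. The difference over all time points was 0.36 ± 0.0499 on the log2 scale (SE, n = 27 and 27), a 1.29-fold rise (edgeR adjusted p = 2.0e-08). Fitted at each time point, it was 0.45 ± 0.0737 at 2 h (edgeR adjusted p = 1.4e-05), 0.46 ± 0.0907 at 4 h (7.6e-04), and 0.13 ± 0.0858 at 8 h (0.52), with 9 libraries a group. The change of this difference with time was not past the threshold in the test of genotype by time (edgeR adjusted p = 0.224). That p ranged from 0.0318 without the D419N line to 0.892 without the N421K line.

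MCM6 is a subunit of the MCM helicase ring. Its levels were 160 to 207 CPM (median 181) in STAT6 WT and 155 to 244 CPM (median 197) in STAT6 MUT at 2 h, 129 to 198 CPM (median 160) and 173 to 220 CPM (median 196) at 4 h, and 165 to 199 CPM (median 183) and 165 to 250 CPM (median 199) at 8 h. The groups overlapped at every time point, with 3, 4, and 4 of 9 mutant libraries above the wild-type range. The difference was 0.16 ± 0.0416 over all time points (1.12-fold, edgeR adjusted p = 0.0033). Of the other subunits of the same ring, MCM2, MCM3, MCM4, and MCM5 did not pass the test, at 0.06, 0.05, 0.00, and 0.05. MCM7, a further ring subunit outside the gene list described here, passed it in the other direction, at −0.19 (edgeR adjusted p = 1.4e-04).

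PRIM1, the catalytic subunit of primase, was counted sparsely, with 0 to 40 UMIs per library. It stood at 3.11 to 13.5 CPM (median 9.42) in STAT6 WT and 7.03 to 22 CPM (median 11.8) in STAT6 MUT at 2 h, at 5.61 to 12.8 CPM (median 7.63) and 9.92 to 19.5 CPM (median 15.1) at 4 h, and at 0 to 19.3 CPM (median 9.97) and 5.00 to 15.7 CPM (median 10.9) at 8 h. At 4 h, 6 of 9 mutant libraries lay above the wild-type range, whereas 0 of 9 did at 8 h. PRIM1 differed by 0.47 ± 0.13 over all time points (1.39-fold, edgeR adjusted p = 0.00663). Without the libraries numbered replicate 1, 3 of STAT6 MUT and 1 of STAT6 WT at each time point, the difference was 0.20 (adjusted p = 0.482). PRIM1 also shares its strand with the far more abundant NACA, which had 54196 UMIs against 612 for PRIM1 and differed by 0.07 (adjusted p = 0.0868), and whether reads of one were counted on the other was not tested. PRIM2, the large primase subunit, differed by 0.01.

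POLE, the catalytic subunit of the leading-strand polymerase, was at 104 to 136 CPM (median 113) in STAT6 WT and 86.4 to 132 CPM (median 98.5) in STAT6 MUT at 2 h. There, 8 of 9 mutant libraries lay below the wild-type range, and the remaining library, D419N replicate 2, was at 132 CPM. At 4 h it was at 88.3 to 122 CPM (median 103) and 76.9 to 105 CPM (median 93.4), and at 8 h at 85.8 to 126 CPM (median 99.7) and 70.5 to 119 CPM (median 94.3), with 4 and 2 of 9 mutant libraries below the wild-type range. POLE fell by 0.13 ± 0.047 over all time points (edgeR adjusted p = 0.0439), and at 2 h alone it was at −0.21 ± 0.0776 and did not pass (adjusted p = 0.0727). This call was the least stable of the 4, since it was lost under 9 of 21 alternatives, in which the value lay between −0.14 and −0.10, and the adjusted p was 0.0749 without the 8 shallow libraries. POLE2, the accessory subunit of the same polymerase, differed by −0.10 ± 0.0856 (adjusted p = 0.529).

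**Figure D2:**
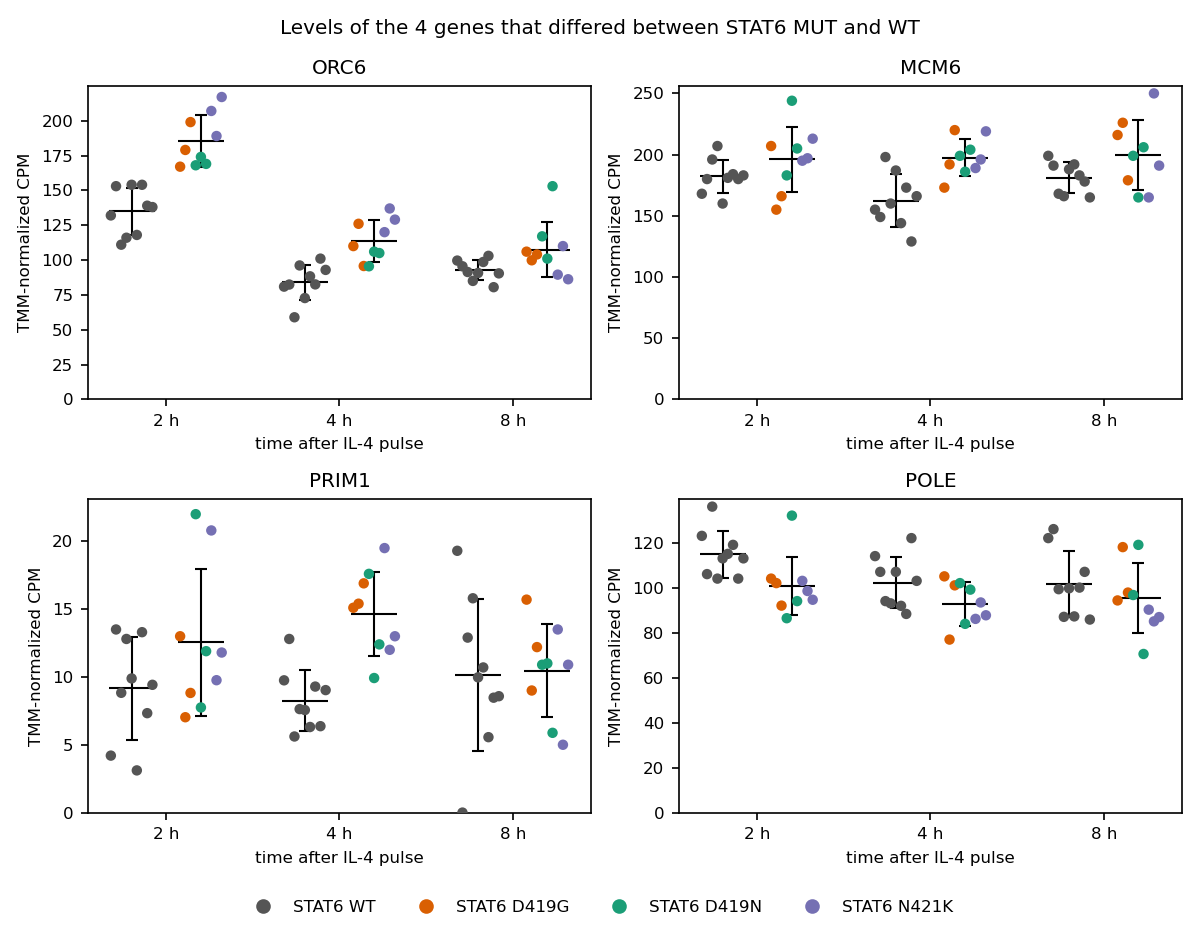
TMM-scaled CPM (y axis) of ORC6, MCM6, PRIM1, and POLE in each library (points, colored by STAT6 line) at 2, 4, and 8 h (x axis), with the mean and SD of each group of 9 as bars. At 2 h, all 9 STAT6 MUT libraries of ORC6 lie between 167 and 217 CPM and the 9 STAT6 WT libraries between 111 and 154 CPM. The groups overlap for MCM6, PRIM1, and POLE.

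Of the other genes that act before replication begins, ORC1, the largest ORC subunit, differed by −0.02 between STAT6 MUT and STAT6 WT, CDC6 by 0.05, and CDT1 by 0.06. The E2F factors E2F1, E2F2, and E2F8 differed by −0.01, −0.08, and −0.13, and the cyclins CCND3, CCNE1, and CCNE2 by 0.02, 0.01, and −0.04. In the helicase, CDC45 was next after the 4 called genes, at 0.15 ± 0.0604 (edgeR adjusted p = 0.0884). Its levels overlapped at 2 h, with 49.6 to 71.2 CPM in STAT6 WT and 51.7 to 72.4 CPM in STAT6 MUT, and at 8 h, with 35.6 to 61.1 CPM and 49.8 to 90.0 CPM. At 4 h the ranges were 36.1 to 56.8 CPM and 33.8 to 73.1 CPM. The GINS subunits GINS1, GINS2, GINS3, and GINS4 differed by 0.17, −0.04, 0.07, and 0.04, and WDHD1, which ties the helicase to primase, by −0.03. Among polymerase subunits, POLA1, POLA2, POLD1, and POLD3 lay between −0.17 and 0.08. The clamp PCNA differed by 0.08, the loader subunits RFC3, RFC4, and RFC5 by −0.17, 0.02, and 0.16, the single-strand binding proteins RPA1 and RPA2 by 0.00 and 0.01, and FEN1 and LIG1, which process and seal Okazaki fragments, by 0.04 and −0.03. RRM1, RRM2, TYMS, and TK1, which make deoxynucleotides, lay between 0.01 and 0.06. The chromatin assembly subunits CHAF1A and CHAF1B differed by 0.06 and 0.15, UHRF1, which guides maintenance methylation, by −0.02, SLBP, which binds histone mRNA, by −0.02, the checkpoint mediator CLSPN by 0.15, DTL, which targets CDT1 for destruction, by 0.17, and the repair proteins UNG and MSH6 by −0.03 and −0.07. None of the genes in this paragraph passed the test.

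Taken by time point, 1 of 48 genes tested differed at 2 h (ORC6), where 8.59% of all genes did (3.92% higher, 4.67% lower). At 4 h, 3 of 49 differed, ORC6, PRIM1 (0.80 ± 0.208, edgeR adjusted p = 0.015), and MCM6 (0.27 ± 0.0745, adjusted p = 0.0253, lost under 8 of 20 alternatives), against 3.97% of all genes (1.96% higher, 2.01% lower). At 8 h, 0 of 49 passed with edgeR, as with DESeq2, against 1.44% of all genes (0.852% higher, 0.591% lower). There, 4 of the 49 had an unadjusted p under 0.05, beside 1205 of all 8801 genes tested. The 3 of the 49 with the smallest p at 8 h were E2F8, a repressor E2F, at −0.50 ± 0.176 (edgeR adjusted p = 0.152), MSH6 at −0.18 ± 0.0796 (0.308), and CDC45 at 0.23 ± 0.111 (0.35). Leaving out the N421K line took the count at 4 h to 0, with ORC6 then at 0.35 (adjusted p = 0.0888). The levels at 8 h rest on fewer molecules in STAT6 MUT than in STAT6 WT, as ORC6 had a median of 86 UMIs per library against 111. No gene of the 49 passed the test of genotype by time with edgeR or DESeq2 (0 each), beside 0.957% of all genes. In that test, 3 of the 49 had an unadjusted p under 0.05, beside 1150 of all 9507 genes tested. Those of the 49 with the smallest p were ORC6, POLD3 (edgeR adjusted p = 0.30), and CDC45 (0.386). POLD3, a subunit of polymerase delta, had medians of 55.1, 52.3, and 60.7 CPM in STAT6 WT at 2, 4, and 8 h and of 64.4, 61.4, and 51.8 CPM in STAT6 MUT.

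Each mutant line was then set against STAT6 WT, with time point and line as terms, and the 3 comparisons share the same STAT6 WT libraries. ORC6 rose in each, by 0.33 ± 0.0733 in D419G (edgeR adjusted p = 0.00149), 0.30 ± 0.0728 in D419N (0.00768), and 0.44 ± 0.0646 in N421K (1.3e-07). At 2 h, ORC6 was at 167, 179, and 199 CPM in D419G, at 168, 174, and 169 CPM in D419N, and at 207, 189, and 217 CPM in N421K. At 8 h, it was at 106, 99.8, and 104 CPM, at 117, 101, and 153 CPM, and at 89.5, 110.0, and 86.2 CPM. The call in D419N was lost without D419N replicate 1 or 3 (adjusted p = 0.0648 and 0.0682). N421K held the 2 highest libraries at 2 h and the 2 lowest STAT6 MUT libraries at 8 h, but ORC6 did not differ among the lines past the threshold (joint test, edgeR adjusted p = 0.59).

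Besides ORC6, 1 further gene differed in D419G, where 5.38% of all genes did (3.16% higher, 2.22% lower): RFC3, a subunit of the clamp loader, fell by 0.52 ± 0.13 on the log2 scale (edgeR adjusted p = 0.00584, and 0.0507 without D419G replicate 2). In D419N, 2.75% of all genes differed (1.49% higher, 1.26% lower), and RFC5, another loader subunit, rose beside ORC6 (0.38 ± 0.112, adjusted p = 0.0431), a call that 9 of 12 alternatives lost. RFC5 ranged from 19.1 to 48.2 CPM in STAT6 WT (median 30.9, n = 27). In D419N it was at 54.3, 33.3, and 37.4 CPM at 2 h, 36.2, 34.3, and 38.4 CPM at 4 h, and 52.9, 43.6, and 52.9 CPM at 8 h, against 10.7 to 39.4 CPM in D419G and 25.1 to 40.4 CPM in N421K. The D419N libraries at 54.3, 52.9, and 52.9 CPM lay above the wild-type range, and the others lay within it. RFC5 overlaps WSB2 on the opposite strand, which differed by 0.26 in D419N (edgeR adjusted p = 0.517). WSB2 was called higher in D419G (0.54, edgeR adjusted p = 0.0267) and in N421K (0.45, 0.0166). The part of WSB2 in the RFC5 count was not tested. In N421K, 13.7% of all genes differed (6.76% higher, 6.92% lower), and 5 of the 49 did. These were ORC6, CLSPN (0.24 ± 0.0767, edgeR adjusted p = 0.0232), MCM6 (0.17 ± 0.0565, 0.0256), PRIM1 (0.49 ± 0.17, 0.0409), and POLE, which fell by 0.19 ± 0.0636 (0.0278). CLSPN was not called without any one of the 3 N421K replicates (adjusted p of 0.0534 to 0.131), nor was POLE without replicate 1 or 3. MCM6 lost its call under 5 of 12 alternatives, among them leaving out N421K replicate 2 or 3 (adjusted p of up to 0.273). PRIM1 in N421K was 0.22 (adjusted p = 0.635) without replicate 1, which held 20.8, 19.5, and 13.5 CPM at 2, 4, and 8 h beside 5.00 to 13.0 CPM in the other N421K libraries.

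Between the mutant lines, 1 of 49 genes differed in the joint test, RFC3 (edgeR adjusted p = 0.0252), against 2.39% of all genes. At 2 h, RFC3 was at 18.4, 17.6, and 20.2 CPM in D419G, 25.9, 19.4, and 19.0 CPM in D419N, and 24.1, 24.4, and 36.0 CPM in N421K. At 4 h, it was at 20.9, 23.1, and 5.63 CPM in D419G, 23.0, 18.9, and 17.3 CPM in D419N, and 29.9, 32.0, and 27.9 CPM in N421K. At 8 h, the values were 25.4, 19.6, and 22.9 CPM, 36.8, 24.2, and 35.3 CPM, and 34.3, 25.0, and 29.9 CPM. D419G lay below N421K in every library at 2 and 4 h and overlapped it at 8 h, and STAT6 WT ranged from 19.8 to 42.8 CPM. The library at 5.63 CPM held 1 RFC3 UMI and is among the shallow ones. RFC3 shares its strand with an overlapping unnamed gene (416 UMIs against 1487), which differed by 0.05 in D419G (adjusted p = 0.951).

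N421K and D419G differed in 2 of 49 genes, against 1.32% of all genes (0.422% higher, 0.896% lower). RFC3 was higher in N421K by 0.60 ± 0.148 (edgeR adjusted p = 0.0148), and CCNE2, an E-type cyclin, by 0.50 ± 0.134 (0.0315). CCNE2 was at 31.4, 28.1, and 31.5 CPM in D419G and 44.9, 37.1, and 38.4 CPM in N421K at 2 h, at 31.4, 33.3, and 0 CPM and 45.7, 40.0, and 39.9 CPM at 4 h, and at 20.5, 24.6, and 26.0 CPM and 39.7, 35.0, and 29.9 CPM at 8 h. The lines did not overlap at any time point. Without the 8 shallow libraries, one of which had 0 CCNE2 UMIs, CCNE2 differed by 0.46 (adjusted p = 0.0802) and RFC3 alone passed. RFC3 was called in 9 of 14 alternatives and CCNE2 in 7 of 14. D419N and D419G, which change the same residue, differed in 0 of 49 genes with edgeR and DESeq2 (0.196% of all genes, 0.103% higher and 0.0927% lower). N421K and D419N differed in 0 with both tools (1.88% of all genes, 0.762% higher and 1.11% lower). Between D419N and D419G, 2 of the 49 had an unadjusted p under 0.05, beside 916 of all 9706 genes tested. Between N421K and D419N, 6 of the 49 did, beside 1356 of all 9706 genes tested. Among the 49, the smallest p between D419N and D419G belonged to RFC5 (0.36, adjusted p = 0.347), CCNE2 (0.35, 0.378), and UHRF1 (0.19, 0.554). Between N421K and D419N, it belonged to POLD3 (0.28, adjusted p = 0.202), RFC3 (0.33, 0.239), and RFC5 (−0.30, 0.264).

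**Figure D3:**
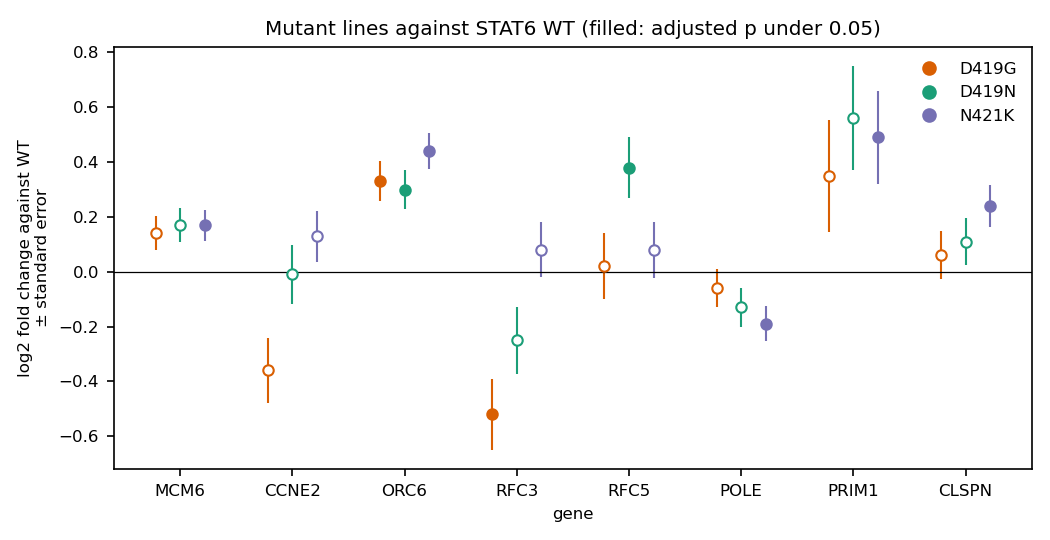
Log2 fold change against STAT6 WT (y axis, points with bars of ± 1 standard error) of the genes that differed in a mutant line or between lines (x axis), by line. Filled points passed the test. ORC6 is filled in all 3 lines (0.33, 0.30, and 0.44), and RFC3 lies at −0.52 in D419G and at 0.08 in N421K.

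More of these genes were called with time after the IL-4 pulse than with genotype, and the same held for all genes. From 2 to 4 h, 11 of 49 differed, 2 higher and 9 lower, while 22% of all genes did (11.6% higher and 10.4% lower). From 4 to 8 h, 10 differed, 7 higher and 3 lower, against 18% of all genes (8.88% and 9.12%). From 2 to 8 h, 24 of 49 differed, 13 higher and 11 lower, against 46.3% of all genes (22.7% and 23.6%). The median log2 fold change from 2 to 8 h was −0.012 for the 49 genes and −0.005 for all genes, so the list did not move one way.

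From 2 to 4 h, the largest falls were in ORC6 and E2F1. ORC6 stood at 111 to 217 CPM at 2 h (median 160, n = 18), 58.9 to 137 CPM at 4 h (median 95.9), and 80.5 to 153 CPM at 8 h (median 99.1). At 4 h, 14 of 18 libraries lay below every library of 2 h, and at 8 h, 16 of 18 did. It fell by 0.71 ± 0.0598 on the log2 scale from 2 to 4 h (edgeR adjusted p = 5.8e-17) and changed by −0.01 from 4 to 8 h (adjusted p = 0.964). E2F1, the founding activator E2F, stood at 41.3 to 85.5 CPM (median 65.7), 25.5 to 64.7 CPM (median 45.0), and 34.3 to 56.8 CPM (median 45.4), and fell by 0.56 ± 0.0764 to 4 h (adjusted p = 1.0e-08). Its groups overlapped, with 5 of 18 libraries of 4 h below every library of 2 h. Both genes thus reached their lower level by 4 h, and both kept these calls under every one of the 16 alternatives run.

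The other genes that fell from 2 to 4 h were CDC6 (−0.30 ± 0.0682, edgeR adjusted p = 5.4e-04), PCNA (−0.19 ± 0.0428, 5.7e-04), DTL (−0.41 ± 0.104, 0.00231), SLBP (−0.25 ± 0.0664, 0.00338), MCM2, CDC45, and CHAF1A. CCND3, a D-type cyclin, rose by 0.66 ± 0.109 (edgeR adjusted p = 1.8e-06), and its levels, like those of CDC6 given further on, are shown by a choice made after they were seen. They went from 7.03 to 32.9 CPM at 2 h (median 22.5) to 25.9 to 61.9 CPM at 4 h (median 35.4), with 12 of 18 libraries of 4 h above every library of 2 h. RFC4 rose by 0.20 ± 0.0632 (0.0131) and overlaps the opposite-strand gene EIF4A2, which also rose, by 0.27 (adjusted p = 7.6e-07). The use of strand in counting is not given, and the part of EIF4A2 in the RFC4 count was not tested.

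From 4 to 8 h, MCM3 (0.24 ± 0.0446, edgeR adjusted p = 3.4e-05), GINS2 (0.22 ± 0.0502, 8.6e-04), GINS1 (0.31 ± 0.095, 0.0141), MSH6 (0.17 ± 0.0526, 0.0189), CDC6 (0.22 ± 0.0703, 0.0222), and RPA1 (0.14 ± 0.0479, 0.0256) rose, as did POLA2. CDC6 was at 45.7 to 91.1 CPM at 2 h (median 71.9), 46.0 to 71.4 CPM at 4 h (median 63.5), and 55.1 to 99.9 CPM at 8 h (median 72.6). Its level was therefore lowest at 4 h, and it did not differ between 2 and 8 h past the threshold (−0.08, adjusted p = 0.298). GINS4 (−0.30 ± 0.0809, edgeR adjusted p = 0.00504), TK1 (−0.23 ± 0.065, 0.00901), and PCNA (−0.13 ± 0.0441, 0.0316) fell from 4 to 8 h. The PCNA call was lost under 8 of 16 alternatives, among them leaving out replicate 1, 2, 4, 5, or 8 (adjusted p of up to 0.291), and the TK1 call without replicate 1 (0.119). Of the rises, GINS1 lost its call under 3 of 16 alternatives, CDC6 under 3, and RPA1 under 4. GINS1 and GINS2 thus rose while GINS4, a subunit of the same complex, fell.

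Over the whole interval from 2 to 8 h, the genes with the smallest p were ORC6, PCNA, E2F1, TK1, and POLA2. PCNA stood at 299 to 372 CPM at 2 h (median 338), 242 to 331 CPM at 4 h (median 294), and 225 to 318 CPM at 8 h (median 264), and 14 of 18 libraries of 8 h lay below every library of 2 h. It fell by 0.32 ± 0.0435 (edgeR adjusted p = 3.6e-09). TK1, the salvage kinase for thymidine, was at 102 to 187 CPM (median 147), 87.9 to 182 CPM (median 133), and 81.1 to 132 CPM (median 118), and fell by 0.37 ± 0.0632 (adjusted p = 9.7e-07), with 3 of 18 libraries below every library of 2 h. ORC6 fell by 0.72 ± 0.0598 (edgeR adjusted p = 1.2e-17), E2F1 by 0.54 ± 0.0753 (5.5e-09), CCNE2 by 0.38 ± 0.0931 (4.0e-04), and MCM2 by 0.15 ± 0.0446 (0.00308). CCNE1, LIG1, DTL, SLBP, and CHAF1A fell too. The opposite-strand genes RPL21P28, which overlaps DTL, and UBXN6, which overlaps CHAF1A, also fell, by 0.73 (edgeR adjusted p = 1.5e-04) and 0.25 (0.00408). INTS8, which overlaps CCNE2 on the opposite strand, rose by 0.31 (0.00138). The part of these genes in the counts was not tested.

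POLA2, the regulatory subunit of DNA polymerase alpha, went the other way. It stood at 40.3 to 63.6 CPM at 2 h (median 51.3), 36.5 to 75.7 CPM at 4 h (median 55.5), and 49.5 to 92.7 CPM at 8 h (median 67.2), and 12 of 18 libraries of 8 h lay above every library of 2 h. It rose by 0.42 ± 0.0765 (edgeR adjusted p = 4.2e-06). WDHD1 (0.42 ± 0.0871, edgeR adjusted p = 4.1e-05), MCM3 (0.21 ± 0.0443, 5.8e-05), GINS1 (0.42 ± 0.0923, 1.2e-04), MSH6 (0.23 ± 0.0522, 1.3e-04), and GINS2 (0.18 ± 0.0493, 0.00201) also rose. So did CCND3, CDT1, RFC4, RFC5, RPA1, FEN1, and UNG. GINS2 overlaps the opposite-strand gene GSE1, which rose by 0.42 (edgeR adjusted p = 1.8e-07). FADS2, which overlaps FEN1 on the same strand, fell by 1.46 (3.2e-24). The part of either in the counts was not tested. By role, 4 of 6 cyclin and E2F genes (3 lower), 4 of 9 licensing genes (2 lower), 3 of 6 helicase activation genes (0 lower), 1 of 8 polymerase genes (0 lower), 6 of 8 genes of the clamp group (2 lower), 1 of 4 nucleotide genes (1 lower), and 5 of 8 chromatin and repair genes (3 lower) were called. Among all genes, 46.3% were called from 2 to 8 h, and these groups by role are small. Within the MCM ring, MCM2 fell and MCM3 rose, while MCM4, MCM5, and MCM6 differed by 0.03, 0.06, and −0.01 and did not pass. The count of 24 was 25 without the 8 shallow libraries.

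With an E2F word in the searched window, 8 of 15 genes were called from 2 to 8 h, 4 higher and 4 lower. Without one, 15 of 27 genes were called, 9 higher and 6 lower. Among all genes, 46.3% were called. Between STAT6 MUT and STAT6 WT, 2 of 15 and 2 of 27 were called, beside 13.4% of all genes. E2F1 and PCNA fell with time and ORC6, whose window holds no such word, fell most, while POLA2 and MCM3, which hold 1 each, rose. The part of E2F in these changes was not tested.

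The change from 2 to 8 h was also fitted within each genotype, which uses separate libraries. In STAT6 WT, 17 of 48 genes differed, 9 higher and 8 lower (30.7% of all genes, 15.2% higher and 15.6% lower), and in STAT6 MUT 14 of 49, 5 higher and 9 lower (34.1% of all genes, 17% higher and 17.1% lower). The genes called in both were ORC6, E2F1, PCNA, TK1, CCNE2, MCM3, POLA2, and WDHD1, and all 8 moved the same way. They made up 47.1% of the calls in STAT6 WT and 57.1% of those in STAT6 MUT, where all genes gave 64.7% and 57.9%, and 40 of 48 genes had the same sign in both, beside 6998 of 9045 among all genes. ORC6 fell by 0.57 ± 0.0764 in STAT6 WT (edgeR adjusted p = 2.5e-08) and by 0.88 ± 0.0834 in STAT6 MUT (7.5e-13). E2F1 fell by 0.62 ± 0.0929 and 0.45 ± 0.117 (3.6e-07 and 0.00174), PCNA by 0.27 ± 0.0587 and 0.35 ± 0.0666 (2.1e-04 and 2.6e-05), TK1 by 0.33 ± 0.0827 and 0.40 ± 0.0873 (0.00138 and 2.0e-04), and CCNE2 by 0.38 ± 0.109 and 0.37 ± 0.141 (0.00553 and 0.0353).

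The rises shared by the genotypes were of like size, at 0.39 ± 0.0997 and 0.46 ± 0.112 for POLA2, 0.44 ± 0.106 and 0.43 ± 0.134 for WDHD1, and 0.19 ± 0.0566 and 0.24 ± 0.0689 for MCM3 in STAT6 WT and STAT6 MUT. MSH6 (0.30 ± 0.0665, edgeR adjusted p = 3.0e-04), GINS2 (0.25 ± 0.0645, 0.00229), and CCND3 (0.48 ± 0.137, 0.00518) were called higher in STAT6 WT and stood at 0.16, 0.11, and 0.29 in STAT6 MUT. SLBP fell by 0.29 ± 0.0821 in STAT6 WT (0.0049) and changed by −0.09 in STAT6 MUT. GINS1 (0.53 ± 0.132, edgeR adjusted p = 0.001) and RFC4 (0.25 ± 0.0971, 0.0405) were called higher in STAT6 MUT, at 0.33 and 0.17 in STAT6 WT. The RFC4 call was lost under 6 of 10 alternatives, among them DESeq2 and leaving out replicate 1, 2, or 3 (adjusted p of up to 0.365), and EIF4A2, which overlaps it, rose by 0.53 in STAT6 MUT. POLD3 (−0.39 ± 0.0997, 0.00139) and CHAF1A (−0.27 ± 0.0788, 0.00476) were called lower in STAT6 MUT, at 0.01 and −0.07 in STAT6 WT. The call of POLD3 was lost without replicate 3 (adjusted p = 0.111) and that of CHAF1A without replicate 1 (0.0901). UNG, RFC5, RPA1, MCM2, and CDC45 were also called in STAT6 WT alone, and E2F8 (−0.59 ± 0.208, edgeR adjusted p = 0.0232) and DTL (−0.39 ± 0.149, 0.0372) in STAT6 MUT alone. A call in one genotype alone is no difference between them, and the interaction of genotype and time passed for none of these genes.

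**Figure D4:**
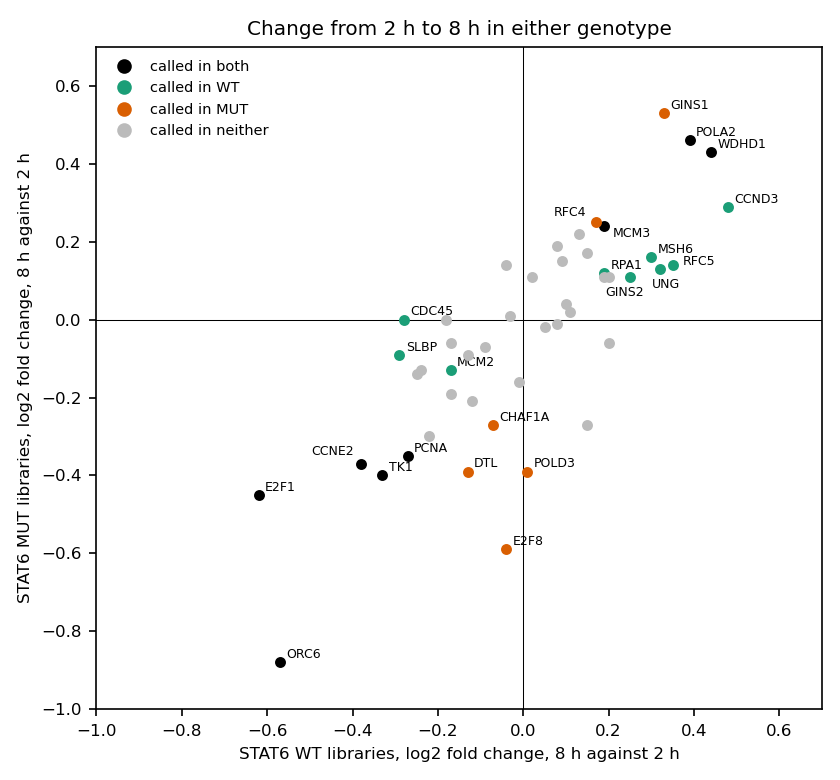
Log2 fold change from 2 to 8 h in the STAT6 WT libraries (x axis) and in the STAT6 MUT libraries (y axis), 1 point per gene tested in both (48). Of these, 40 have the same sign (6998 of 9045 among all genes). ORC6 lies lowest on the STAT6 MUT axis, at −0.88, and E2F1 on the STAT6 WT axis, at −0.62.

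Genes of the same processes that are not among the 50 give the setting. Of 34 other replication genes tested, 4 passed for genotype (11.8%, beside 13.4% of all genes), namely ORC5 (−0.36, edgeR adjusted p = 2.9e-05), MCM7 (−0.19, 1.4e-04), HELLS (0.23, 0.00862), and RFC1 (0.14, 0.0289). ORC5, a further subunit of the complex that holds ORC6, and MCM7, the ring partner of MCM6, thus went lower where ORC6 and MCM6 went higher. Of 22 other G1/S control genes, 7 differed (31.8%), with TFDP2 (0.24), E2F7 (0.52), and FBXW7 (0.19) among those higher and E2F5 (−0.35), E2F4 (−0.18), and MYC (−0.17) lower. Of 18 G2/M genes, 5 differed (27.8%), all higher, with MKI67 at 0.23 (edgeR adjusted p = 8.5e-04), KIF11 at 0.27 (0.00288), and UBE2C at 0.17 (0.0111). The summed level of the 18 G2/M genes was 2130 to 2600 CPM in STAT6 WT and 2490 to 2830 CPM in STAT6 MUT at 2 h, 2260 to 3070 CPM and 2420 to 2980 CPM at 4 h, and 2230 to 2650 CPM and 2320 to 2880 CPM at 8 h. The ranges overlapped at each time point, and the part of cell cycle distribution in the differences of ORC6 and MCM6 was not tested. From 2 to 8 h, 19 of 34, 15 of 22, and 11 of 18 genes of these lists differed (55.9%, 68.2%, and 61.1%, beside 46.3% of all genes), with BRCA1 (0.44), MYC (0.44), and KIF20A (0.50) among those that rose and DBF4 (−0.34), RB1 (−0.68), and CDK1 (−0.38) among those that fell.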

How the data were processed

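RNA of OCI-Ly1 cells was profiled in 54 prime-seq libraries, in which each molecule carries a UMI. The authors deposited raw UMI counts per gene and well, made with the Drop-seq pipeline and neither normalized nor pooled. The submitters' processing notes name hg38. The aligner, annotation, and strand setting were not given in the sources used here. Depth was 161518 to 2978715 UMIs per library, and low counts limit precision. Groups came from the sample labels, which number the libraries of a group as biological replicates. The labels do not say how far these were separate cultures, so p-values measure the spread between these libraries.

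R 4.3.3 with edgeR 4.0.16 and DESeq2 1.42.0 served for counts, and Python 3.11.15 with matplotlib 3.10.9 for plots. The main analysis was the quasi-likelihood F-test of edgeR with TMM scaling and filterByExpr, with p-values adjusted by Benjamini-Hochberg over all genes tested (threshold 0.05). Models held time point and genotype, or time point and line, over all 54 libraries, genotype at 1 time point (18 libraries), time within a genotype (27 libraries), or genotype by time. Symbols matched 30959 of 31835 identifiers, and 0 rows lacked a gene. Coordinates and overlaps came from GENCODE and promoters from RefSeq GRCh38.p14. The 50 genes, their roles, and the further lists were chosen by function with earlier results of these data known. Genes were named by role, with statistics for at most the 6 called genes of smallest p in each direction or, where none was called, the 3 of smallest p. The fits were also run on simulated counts with known changes, drawn independently for each library. Such counts cannot show the effect of a culture or transduced population shared by libraries. Alternatives covered scaling, count filter, tool, plate row, replicate block, and leaving out shallow libraries, replicates, and lines. They also covered counts summed per culture, taken as the libraries of 1 line and replicate number.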

Additional observations from a re-analysis of the deposited data

Results flagged for a closer look

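Among the 13 genes given by library, 78 groups of 9 libraries were looked at for a library that stood apart by Dixon's criterion, and 5 did, where chance gives about 1 group in 20. ORC6 at 8 h was at 153 CPM in D419N replicate 3 (26 UMIs), above the next STAT6 MUT library at 117 CPM. POLE at 2 h was at 132 CPM in D419N replicate 2 (34 UMIs), with the next at 104 CPM. RFC3 at 2 h was at 36.0 CPM in N421K replicate 3 (73 UMIs), with the next at 25.9 CPM. RFC5 at 2 h was at 54.3 CPM in D419N replicate 2 (14 UMIs), with the next at 37.4 CPM. CCNE2 at 4 h was at 0 CPM (0 UMIs) in D419G replicate 3, with the next at 25.2 CPM.

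A test of the difference between mutant lines passed for RFC3 in the joint test (edgeR adjusted p = 0.0252), for RFC3 between N421K and D419G (adjusted p = 0.0148), and for CCNE2 between N421K and D419G (adjusted p = 0.0315).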

How the results depend on the processing

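Depth limits the sparse genes most: PRIM1 had a median of 10 UMIs per library and CCND2 had 3 in all. Of 1286 fits of named genes under alternatives, 1180 kept their side of the threshold and direction, 105 lost the call, 1 gained it, and 0 reversed. ORC6 over all time points was called in 21 of 21 (0.31 to 0.40). MCM6 lost its call under 1 of 21, PRIM1 under 2, and POLE under 9. ORC6, PCNA, E2F1, TK1, and POLA2 from 2 to 8 h were called in 16 of 16. The causes of lost calls were not tested.

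Same-numbered libraries did not deviate together (r of −0.119 to 0.256 over 54 pairs across time points, 4 over 0.1, and −0.237 to 0.215 over 54 pairs across lines, 7 over 0.1), so the numbers were not taken as pairs. With the replicate block, counts called were 2 over all time points (MCM6 at 0.16, adjusted p = 0.114, and PRIM1 at 0.19, 0.62, lost their calls), 1 at 4 h, 1 in D419N, and 3 in N421K.

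Among the other alternatives, the count at 2 h was 2 with total counts only and 2 without the shallow libraries, and that at 4 h was 0 without the N421K line. In D419N it was 1 with total counts only, no filter, no shallow libraries, plate row, or summed cultures. In N421K it was 2 with no filter and 2 with summed cultures. The joint test gave 0 with no filter and 0 with summed cultures. N421K against D419G gave 1 with no filter, without shallow libraries, or with plate row. From 4 to 8 h, no filter gave 6, and the interaction gave 1 (ORC6) without the D419N line.

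Leaving out each replicate in turn gave 2 to 4 over all time points, 1 to 3 at 2 h, 1 to 3 at 4 h, 0 at 8 h, 1 to 2 in D419G, 0 to 1 in D419N, 2 to 3 in N421K, 0 to 1 in the joint test, 0 to 2 for N421K against D419G, 9 to 12 from 2 to 4 h, 5 to 14 from 4 to 8 h, 20 to 25 from 2 to 8 h, 13 to 20 in STAT6 WT, and 9 to 11 in STAT6 MUT.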
